A study of Mus musculus with 46 samples.

Results

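P022 is a 450 bp promoter fragment that holds the outermost annotated starts of both Smim7 and Tmem38a, and its activity was measured in reporter plasmids in mouse embryonic stem cells. Its constructs were found by the fragment's name: 521 of the 89293 Upstream constructs in the series, all among the 19789 of the Klf2 locus, and 206 of the 2364 Downstream constructs. The cells were E14TG2a, a mouse embryonic stem cell line, untreated apart from the nucleofection, grown in 2i+LIF medium and harvested 24 h later. The Upstream assay places 1 or 2 fragments before a barcoded reporter, so the second one is next to it, and the Downstream assay places a fragment after a reporter that a promoter drives. A fragment is a promoter, a candidate cis-regulatory element (cCRE) or, Downstream, a shuffled or random control sequence. Activity is the ratio of reporter barcodes in RNA (as cDNA) to the same barcodes in plasmid DNA, and the 3 replicates of each assay were separate transfections of the same plasmid mix. Plasmids carry the fragments outside their chromosomal place, so no value below is a level of Smim7 or Tmem38a RNA.

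Genes whose starts lie close together and point away from each other share what is called a bidirectional promoter. Such a promoter can start transcription both ways, often in CpG-rich sequence without a TATA box, and the strength of the directions can differ. Smim7 encodes a small integral membrane protein, and Tmem38a encodes TRIC-A, a cation channel of the endoplasmic and sarcoplasmic reticulum. Both lie in the Klf2 locus of the study, named for a transcription factor of naive pluripotency.

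P022 spans chr8:72570844-72571294 as the deposited table gives it (mm10, per the submitters' processing notes). In RefSeq's annotation of GRCm38.p6, the same build, Smim7 runs leftward from its start at 72571048 and Tmem38a rightward from its start at 72571189, so 141 bp separate the starts. The Smim7 start lies 204 bp from the fragment's low-coordinate end and the Tmem38a start 105 bp from its high-coordinate end. A further promoter fragment, P023, begins 364 bp beyond P022 and lies within the Tmem38a gene. RefSeq's promoter table sets its Tmem38a window (chr8:72571573-72571872) at a further start of that gene, 72571823, which lies inside P023, and none of that window lies in P022. The table gives each fragment's orientation as + or −. Whether + means the genome's own strand is not given in the sources used here; if it does, P022+ reads toward Tmem38a and P022− toward Smim7.

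The RefSeq window around the Smim7 start (chr8:72570999-72571298, GRCm38.p6, minus strand) is printed here because 296 of its 300 bases lie in P022 and it covers the sequence between the starts. It is written 5′ to 3′ in the Smim7 direction, and capitals mark matches to the motif words searched.

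Smim7 promoter window: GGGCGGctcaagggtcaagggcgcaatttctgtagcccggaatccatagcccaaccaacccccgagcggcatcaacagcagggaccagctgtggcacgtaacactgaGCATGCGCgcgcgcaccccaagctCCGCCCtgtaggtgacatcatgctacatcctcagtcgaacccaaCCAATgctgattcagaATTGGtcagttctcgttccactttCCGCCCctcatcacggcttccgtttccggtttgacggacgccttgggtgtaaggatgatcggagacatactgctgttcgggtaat

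The word GGGCGG, the core that SP and KLF factors recognise, occurred 3 times counting both strands, at −250, −119 and −35 from the Smim7 start, the first of them across the fragment's edge. CCAAT, the NF-Y word, occurred at −75, and on the other strand, as ATTGG, at −59. GCATGCGC, the NRF1 core, occurred at −143. Of 32851 RefSeq promoter windows of this length, 35.7% held GGGCGG, 37.4% CCAAT and 2.71% GCATGCGC on either strand. The words for ETS factors (CCGGAAG), YY1 (AAGATGG), CREB/ATF (TGACGTCA), ZBTB33-type elements (TCGCGA), the TATA box (TATAAA) and the E-box (CACGTG) had no match in this window. The window held 21 CG dinucleotides and 57.3% G or C, and 76.9% of all windows held as many CG dinucleotides or fewer, around a median of 7. These are matches of letters and say nothing of which factor binds.

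P022+ alone was the most active of the 46 oriented promoter fragments of the Klf2 locus. Its activity was 19.8, 19.4 and 16.6 in replicates 1, 2 and 3 (18.6 ± 1.75, SD, n = 3). P022− alone was at 4.77, 4.90 and 4.15 (4.61 ± 0.40), and no replicate of one orientation came near the other. The + orientation was higher by 2.01 on the log2 scale (SE 0.30), which is 4.04-fold, with a limma adjusted p of 0.011 after Benjamini-Hochberg correction. In this comparison 7.07% of the 99 Klf2 fragments measured in both orientations were called, all 7 of them higher in +. The difference was 2.00 without replicate 1 and 2.03 without replicate 2, but there the adjusted p was 0.72 and 0.094.

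All 45 other oriented promoters were lower than P022+ by limma (100% of this comparison called). P017+, from the Eps15l1 promoter (an endocytic adaptor gene), came closest at 15.0, 15.0 and 12.2, lower by 0.41 (SE 0.16, adjusted p = 0.044). P017+ was not called without replicate 1 (−0.41, adjusted p = 0.26) or without replicate 2 (−0.42, adjusted p = 0.31), and 44 of 45 promoters were called whichever replicate was left out. P003+ of Zfp961 (a zinc finger gene) followed at 8.88 ± 1.09 and P021+ of Med26 (a Mediator subunit) at 7.94 ± 0.677. The order went on with P021− at 6.81, P014+ and P014− of Ap1m1 (a clathrin adaptor subunit) at 6.18 and 5.95, and then P022−.

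P022− was placed eighth. Against it, 7 oriented promoters were higher, P022+ among them, and 36 were lower (95.6% of this comparison called, 15.6% higher and 80% lower), while P019− of Cherp at 4.44 ± 0.322 and P013+ of Fam32a at 3.37 ± 0.667 did not pass. P014− passed only just, at an adjusted p of 0.050 as rounded. The 7 fragments called for orientation were P013 (3.13 on the log2 scale), P017 (2.68), P016 of Klf2 itself (2.53), P003 (2.03), P022 (2.01) and P001 of Zfp882 (1.52), with 1 cCRE fragment besides. The remaining promoters gave smaller or more variable differences between orientations, from P025 of Sin3b at 1.67 through P010 of Hsh2d (1.11), P009 of Rab8a (0.89), P018 of Calr3 and 1700030K09Rik (0.40) and P021 (0.22) to P014 (0.06). P019 and P007 of Olfr374 lay on the − side, at −1.09 and −1.77, with adjusted p of 0.12 and 0.24. P008 (−0.65), P011 (−0.58), P002 (−0.44) and P024 (−0.04) also lay on that side and were not called.

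Beside P022, P023 was weak. P023+ alone measured 0.238, 0.153 and 0.345 and P023− 0.144, 0.0754 and 0.289. The remaining fragments, P002, P004, P005, P008, P011, P012, P024 and P026, had a mean activity between 0.0992 (P005−) and 0.460 (P012+) in either orientation. P012+ ranged from 0.0133 to 1.12 among its replicates, so its mean rests on replicate 1.

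A cCRE placed before P022 left most pairs below P022 alone. Of 162 such pairs over 64 cCREs, 2 were higher and 55 lower, or 35.2%, where 16.1% of all 3685 Klf2 pairs of a cCRE and a promoter were called (4.1% higher and 12% lower). The median difference was −0.48 on the log2 scale (SD of the 3 replicate medians 0.036), against −0.28 over all those pairs. It was −0.54 for P022+ and −0.42 for P022−. Other promoters active alone varied. Lower pairs numbered 72 of 126 for P001+, 48 of 119 for P017− and 43 of 119 for P018−. They numbered 13 of 135 for P017+ and 6 of 82 for P003+. In activity, the median pair was at 12.9 ± 1.17 with P022+ and 3.40 ± 0.20 with P022−, or 69.4% and 73.9% of P022 alone. Single fragments and pairs were made as separate libraries per the labels, so a shift between these libraries and the addition of a cCRE cannot be told apart. With the median pair of the same oriented promoter as the baseline, which lies within the pair library, 11 of 162 were called, 5 of them higher. With a replicate block 93 were called, and with any 1 replicate left out none (limma with 2 against 2 values).

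E007 was the cCRE with the largest gain. It lies in Zfp617, a zinc finger gene, at chr8:71922525-71922975, 648 kb from P022. E007+ before P022− measured 13.1, 14.9 and 10.6, each above the matching 4.77, 4.90 and 4.15 of P022− alone. That was higher by 1.47 (SE 0.17, adjusted p = 0.0097), or 2.78-fold. Before P022+ it measured 33.1, 32.2 and 26.2, higher by 0.71 (SE 0.15, adjusted p = 0.039). These were the 2 pairs called higher. The next by size, E006+ and E005+ before P022− (0.37 and 0.33) and E097− of Nwd1 before P022+ (0.33), were not called.

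The largest loss came with E030, which lies in Gm39196 at chr8:72125819-72126269, 445 kb from P022. E030+ before P022+ measured 5.09, 4.49 and 3.34, against 19.8, 19.4 and 16.6 for P022+ alone, and was lower by 2.13 (SE 0.20, adjusted p = 0.0068). Before P022− it measured 1.12, 1.09 and 1.40 and was lower by 1.94 (SE 0.16, adjusted p = 0.0068). No replicate of either pair reached P022 alone in its orientation. E075− of 1700030K09Rik (−1.41) and E040+ of Cib3 (−1.32), both before P022−, were also called lower. E038− of Hsh2d was as far down (−1.36) but its replicates, 1.00, 3.64 and 1.58, scattered and it was not called.

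The nearest cCREs measured with P022 were taken by distance alone. E084, 6.41 kb away inside Tmem38a, is nearer than these, but no construct joining it to P022 was analysed here. E085, 8.52 kb away inside Tmem38a, gave differences of −0.19 to −0.68 over 4 pairs, 1 of them called lower. E083, 9.73 kb away, gave −0.16 to −0.77 over 4 pairs, again with 1 called lower. E087, 19.3 kb away in Gm51538, measured 5.16, 6.28 and 4.41 before P022− (0.19, adjusted p = 0.62). E081 in Med26, 31.7 kb away, gave −0.28 and −0.78, the second called lower, and E082, 15.1 kb away, was measured with P022 only Downstream.

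A promoter placed before P022 moved it either way. Of 58 pairs over 20 promoters, 9 were higher and 17 lower, or 44.8%, where 41.2% of all 1317 Klf2 promoter pairs were called (29.9% higher, 11.2% lower). Against P022 alone the total share was near the background but its direction was not: 15.5% of the P022 pairs were higher and 29.3% lower. That difference in direction was not tested, and it depended on the baseline. With the median cCRE pair of the same oriented P022 as the baseline, from within the pair library, 24 of 58 were called, 19 of them higher. The median difference was −0.19, against 0.18 over all promoter pairs. P014+ before P022− gave the largest gain at 9.69, 14.8 and 8.09, higher by 1.19 (SE 0.26, adjusted p = 0.015). P021− and P021+ (0.98 and 0.91), P014− (0.85) and P018+ (0.81) followed, all before P022−. All 4 pairs of P018 were called higher, as were 2 of 3 of P014, 2 of 3 of P021 and 1 of 4 of P017.

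The lowest pair was P007−, of the olfactory receptor gene Olfr374, before P022+, at 9.60, 8.35 and 6.14. It was lower by 1.23 (SE 0.21, adjusted p = 0.0072). P004− and P004+ of Cyp4f18 (−1.13 and −1.0), P012− (−1.03) and P010− (−0.99) came next, and every pair of P004, P007, P010 and P012 was called lower. So were 3 of 4 pairs of P005 and 1 pair each of P001, P011, P019 and P023. No pair of P002, P003, P008, P009, P016, P024 or P025 was called. Without replicate 1 none of the 58 pairs passed, without replicate 2 there were 2, and without replicate 3 there were 22.

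Promoters that were more active alone gave higher pairs with P022. The difference from P022 alone and the partner's own log2 activity had a Pearson r of 0.69 over 21 oriented promoters before P022+ and 0.80 over 37 before P022−. For oriented cCREs r was 0.56 over 65 and 0.48 over 97. These are descriptions over fragments that share 1 baseline and the same replicates. The mean activity of 20 of the 58 pairs exceeded both of its promoters alone, and that of 10 exceeded their sum. P018− before P022+ went furthest, at 32.8, 29.2 and 26.2 where P018− alone averaged 2.33 and P022+ alone 18.6, which is 1.40 times their sum. The median pair reached 0.763 of the sum. Pairs and single fragments came from separate libraries, so a shift between libraries and an effect of pairing cannot be told apart here. In activity, the median promoter pair was at 15.0 ± 2.02 with P022+ next to the reporter and at 4.34 ± 0.485 with P022−, or 80.4% and 94.2% of P022 alone.

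Moved to the first position, with a cCRE between it and the reporter, P022 still gave activity, at a lower level. The cCREs alone had a median activity of 0.122, 0.0631 and 0.249 in the 3 replicates. Behind P022+ the median was 4.38, 4.82 and 3.96 over 120 pairs, and behind P022− it was 0.569, 0.654 and 0.721 over 107. These medians are 23.6% and 14.2% of P022 alone. Of 225 pairs with a measured baseline, 190 were higher than the cCRE alone and none lower (84.4%, where 28% of all 3930 such pairs were called, 27.8% higher and 0.204% lower), all 119 with P022+ and 71 of 106 with P022−. Without replicate 1 there were 94. High shares were also seen with other promoters active alone: P017+ (125 of 135), P019− (100 of 106) and P014− (90 of 97). Some active ones had lower shares, such as P014+ (46 of 80) and P018− (26 of 108). The median difference was 4.88 for P022+ and 2.31 for P022−, and these differences rest on cCRE baselines that were low and differed between replicates.

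P022+ before E093− of Nwd1 led by difference, at 11.4, 11.9 and 13.9 against 0.129, 0.0432 and 0.239 for E093− alone (6.81 on the log2 scale, SE 0.69, adjusted p = 0.0011). P022+ before E010+ of Zfp961 (6.72), E008+ of Zfp617 (6.37), E085− of Tmem38a (6.21) and E041+ (6.09) followed. Among the cCREs measured behind P022−, the ones most active alone, E097+, E007− and E030−, were not called. E097+ of Nwd1 alone measured 2.31, 1.93 and 2.04 and with P022− before it 1.52, 1.59 and 1.80 (−0.36, adjusted p = 0.71). E007− alone measured 1.79, 1.81 and 1.72 and behind P022− 1.5, 1.93 and 1.57 (−0.10), but behind P022+ 15.0, 15.8 and 12.03 (3.00, adjusted p = 0.0028). E030−, E083− and E105+ of Sin3b were the other low pairs, at −0.15, 0.71 and 0.72 behind P022−, none of them called. A simulation that changed 68, 66 and 66 of 3930 pairs by 1, 2 and 4 log2 units recovered 0%, 0% and 39.4% of them. In the data 28% of the 3930 pairs were called, so the simulated rates do not carry over to these pairs. A pair that was not called may still differ.

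The same cCRE with P022 in both positions gave 134 matched comparisons. In 128 of them activity was higher with P022 next to the reporter and in none lower (95.5%, where 49.8% of 2575 such comparisons were called, 48.6% higher and 1.2% lower). Similar shares were seen with other promoters active alone, such as P021− (75 of 78), P009+ (91 of 94) and P017+ (112 of 119). P009− (65 of 86) and P019− (66 of 79) had lower ones. Of the 134 comparisons with P022, 79 were called without replicate 1. The median difference was 1.37 for P022+, rank 16 among the oriented promoters, and 2.26 for P022−, rank 8. The largest were E077− of Slc35e1, E061− and E015+ of Zfp961, all with P022− (3.31, 3.31 and 3.28), then E096+ with P022+ (3.15) and E095+ with P022− (3.14). E008+ lost least: with P022+ it measured 18.4, 19.2 and 16.1 in one order and 18.2, 18.4 and 14.3 in the other (0.08, adjusted p = 0.81), and with P022− the difference was 0.27. E093− (0.13), E041+ (0.52) and E085− (0.60) with P022+ were not called either. E008 shares bases with E007 at the edge of the latter.

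The orientation difference seen with P022 alone was also present with partners. With the same oriented cCRE before it, P022+ was higher than P022− in 65 of 65 comparisons (100%, where 42.2% of 1546 were called, 37.6% higher and 4.59% lower). The median difference was 1.92 and the range 1.19 to 2.62. E083+ (2.62), E021− of Cyp4f18 (2.60), E105− (2.58), E092+ (2.46) and E097− (2.40) were the highest. E061− (1.19), E036− of Rab8a (1.23), E007+ (1.25), E068+ of Eps15l1 (1.34) and E020+ (1.34) were the lowest. Without replicate 1, 43 of 65 were called.

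With P022 first and a cCRE between, P022+ was higher than P022− in 104 of 106 comparisons (98.1%, where 25.8% of 1531 were called, 17.8% higher and 8.03% lower), with a median of 2.70. This comparison was added after the data had been seen, and without replicate 1 none of the 106 passed. E093− (4.25), E083− (3.97), E010+ (3.92), E036+ (3.90) and E021− (3.87) had the largest differences. The smallest were those of E096− (0.63) and E087+ (0.85), which were not called, and E018+ (0.74), E006+ (0.75) and E006− (0.90).

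Placed before a promoter, P022 raised 59 of 74 pairs and lowered none (79.7%, where 29.9% of the promoter pairs were called higher). That was 40 of 41 pairs with P022+ and 19 of 33 with P022−, and without replicate 1 it was none of 74. On the log2 scale the gain was largest over weak promoters, whose baselines were low and differed between replicates. Behind P022+, P002+ measured 14.3, 15.6 and 11.8 against 0.145, 0.109 and 0.282 alone (6.39, SE 0.38, adjusted p = 7.1e-04). P008+ (6.34), P025− (5.72), P010− (5.66) and P024+ (5.61) came next. The 5 lowest differences were all with P022− and were not called, at 0.02 for P018+, −0.02 for P003+, −0.12 for P021+, −0.14 for P017+ and −0.39 for P014+. Some other active promoters were called higher behind P022−: P009+ (1.12), P017− (1.06), P019+ (0.90) and P019− (0.66, adjusted p = 0.035). Of the 74 pairs, 6 exceeded both promoters alone and 0 their sum, and the median pair reached 0.367 of the sum. The limit of separate libraries for pairs and single fragments applies to these values and to the differences from a promoter alone. The median activity of these pairs was 6.37 ± 0.637 with P022+ and 2.32 ± 0.140 with P022−. The log2 activity of a pair rose with the partner's own log2 activity. Pearson's r was 0.79 over 41 pairs with P022+ first and 0.87 over 33 with P022− first.

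P023, the neighbour, behaved as a weak partner here. P022+ before P023+ measured 6.33, 7.03 and 5.76, and P023+ before P022+ measured 20.03, 21.6 and 17.2, next to 19.8, 19.4 and 16.6 for P022+ alone (0.07, adjusted p = 0.76). P023− before P022− was called lower, by 0.64.

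To ask whether a cCRE acted differently on P022 than on other promoters, its boost index was used: its log2 activity minus that of the median construct of that oriented promoter. Upstream, none of 162 pairs differed from the mean index of the same cCRE over the other promoters by limma (background 0.739% of 3654, 0.328% higher and 0.411% lower), while 54 had an unadjusted p under 0.05. With quantile-normalised replicates 43 were called, so the count rests on how replicates are scaled. E007+ with P022+ was lowest, with an index of 1.29, 1.24 and 1.18 against 2.62, 3.23 and 2.06 over other promoters (−1.40, SE 0.29, adjusted p = 0.072). E097− (−1.26), E011− of Zfp961 (−1.14) and E083+ (−0.92), all with P022−, and E030+ with P022+ (−0.85) were next. At the other end lay E081− (0.59), E087− (0.59), E020+ (0.58), E072− of Calr3 (0.58) and E012− of Zfp961 (0.55), all with P022−.

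Over shared oriented cCREs, the boost index with P022 was most like that with P021 (r = 0.82 over 97 cCREs), P014 (0.81 over 85) and P003 (0.80 over 82). The order was another by Spearman's rho, with P018 first (0.79), P003 and P021 at 0.74 and P014 at 0.66. The index had a Pearson r of 0.69 between P022+ and P022− over 65. Among the other promoters Pearson's r was lowest for P007, at 0.34 over 92. All share the same 3 replicates.

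Downstream, the P022 vector was again the most active of 10 promoter vectors. All these vectors hold the promoter in the + orientation. Without an insert it measured 4.09, 3.97 and 4.37 (4.15 ± 0.204), and the next was P021 at 2.56 ± 0.037 and then P017 at 1.6 ± 0.122. P018, P014, P009, P013 and P016 followed between 1.30 and 1.10, then P019 at 0.389 and P001 at 0.354, and the vector with no promoter was at 0.15. This order is given as a description. Whether Upstream and Downstream activities share a scale is not given in the sources used here, so their levels were not set against each other.

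With a control sequence behind the reporter, the P022 vector was at 2.47, 2.31 and 2.66 at the median of 40 constructs. With a cCRE there it was at 3.29, 3.03 and 3.56 at the median of 126 constructs. Against the mean of the controls, 62 of 126 cCRE constructs were higher and 8 lower (55.6%, where 52.3% of all 1364 such constructs were called, 37% higher and 15.3% lower). The total share was near the background; by direction, 49.2% were higher and 6.35% lower. The median difference was 0.29, against 0.18 over all of them. The controls enter this test as their mean in each replicate, so the spread among the 40 controls (SD 0.577) is left out. Compared with the P022 vector alone instead, which lay 0.62 above the controls, 8 were higher and 70 lower. Compared with the median construct, 40 were higher and 19 lower. With a replicate block 109 were called, and without replicate 2 there were 43.

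One control stood far from the rest. The third shuffled version of E27 in the + orientation measured 14.9, 13.6 and 15.5, or 2.44 above the mean of the controls, while the other 39 controls lay between −0.93 and 1.29. Because of it no cCRE construct lay above all controls, and 2 lay above all but it. No cCRE construct lay below all controls, so the 8 called lower were within the range of the controls. With the median of the controls as the baseline, an alternative chosen after the data had been seen, 86 constructs were called, 80 of them higher. Controls and cCREs came from separate sublibraries, so that difference and the kind of insert cannot be told apart.

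E087 gave the largest Downstream gain. It lies 19.3 kb from P022, in Gm51538, at chr8:72590167-72590617. E087− behind the P022 reporter measured 11.4, 10.3 and 12.8, higher than the controls by 2.08 (SE 0.12, adjusted p = 1.5e-06), or 4.23-fold. In the other orientation E087+ measured 2.81, 2.63 and 3.10 and was not called (0.07, adjusted p = 0.62). The difference between its orientations, −2.01 for + against −, was called (adjusted p = 5.5e-06).

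E007− was second at 8.77, 7.79 and 8.85 (1.65, SE 0.11, adjusted p = 3.7e-06), and E007+ was called higher too, at 4.12, 3.88 and 4.12 (0.58). E073+ of Calr3 (1.05), E068− (1.03) and E004− (1.01) completed the highest 5. At the lower end were E005+ at 1.76, 1.71 and 1.82 (−0.62, adjusted p = 8.1e-04), E034− of Tpm4 (−0.53), E081− (−0.51), E075− (−0.50) and E030+ (−0.43). All 5 were called lower. Among the nearest cCREs E085+ was called higher (0.44), whereas E082 and E083 were not called in either orientation.

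Orientation of the Downstream cCRE changed its effect in both directions, at a share near that over all promoter vectors. Of 55 cCREs measured both ways behind P022, 11 were higher in + and 11 in − (40%, background 41.3% of 612, 23% higher in + and 18.3% in −). E034 (1.36), E073 (1.18), E035 of Rab8a (0.74), E039 of Cib3 (0.69) and E081 (0.63) led for +. E087 (−2.01), E004 (−1.30), E007 (−1.07), E005 (−0.92) and E076 of Cherp (−0.87) led for −. The log2 activities in the 2 orientations had an r of 0.13 over the 55 cCREs. Relative to the controls, 17 cCREs were called higher both ways, 1 lower both ways, 2 in opposite directions, 25 in only 1 orientation and 10 in neither. With a replicate block 47 of the 55 comparisons were called.

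The Downstream index of a cCRE with P022 was compared with its mean index over the other promoter vectors. It was called different in 88 of 126 cases, 53 higher and 35 lower (69.8%, background 57.4% of 1341, 24.7% higher and 32.7% lower). Here and Upstream, the test holds the spread between replicates and leaves out the spread among the other promoters. A call therefore does not place P022 outside the range of the other promoters. E004− differed most: its index with P022 was 0.84, 0.85 and 0.81 against −0.29, −0.33 and −0.33 elsewhere (1.15, SE 0.03, adjusted p = 5.2e-07). E087− (0.98), E073+ (0.81), E068− (0.77) and E110− of Sin3b (0.76) followed. The lowest were E011+ (−0.68), E110+ (−0.49), E055+ (−0.47), E008− (−0.43) and E019− (−0.41). The promoters with the most alike Downstream index by Pearson's r were P017 (r = 0.74 over 125 oriented cCREs), P018 (0.70 over 126) and P016 (0.69 over 126). By Spearman's rho P017 was first too (0.75), followed by P013 (0.71) and P016 (0.67), with P018 at 0.66.

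Promoters placed behind the P022 reporter were described without a test, as 40 constructs of 22 promoters. They ranged from −0.51 for P004− to 1.45 for P023+ relative to the controls, with a median of 0.33. P023+ behind P022 measured 7.20, 6.73 and 8.23, the highest of them, and P023− 3.74, 3.61 and 4.14. P021+ (1.24), P018+ (1.11), P021− (1.04), P018− (0.97) and P014+ (0.86) came next. P022 behind itself measured 3.65, 3.16 and 3.72 in + and 4.21, 3.71 and 4.37 in −.

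For 62 cCREs the boost index with P022 could be averaged in both assays. Upstream this mean took in pairs of both P022+ and P022−, while the Downstream vectors hold P022+ only. Pearson's r between the assays was 0.61 (Spearman's rho 0.49). With P022+ only and the cCRE matched by orientation, r was 0.39 over 64 pairs. Of the 62, E007 was called higher on both sides of the reporter, and E030, E040, E075 and E081 lower on both, each in at least 1 construct of each assay. Among all cCRE pairs with P022, 1.23% were called higher and 34% lower Upstream, and 49.2% and 6.35% Downstream. The overlap over other promoters was not computed, and the Upstream calls rest on P022 alone, from a separate library. The Downstream calls rest on the mean of the controls, so the shares of the 2 assays have unlike baselines. Against the P022 vector alone, 78 of 126 Downstream constructs were called, and 8 of these were higher. All tested constructs of E007, E030 and E040 were called, whereas E075 was called in 1 of 2 Downstream. For E081 the calls were in opposite orientations: E081+ before P022− Upstream (−0.78) and E081− Downstream (−0.51), while E081− Upstream (−0.28) and E081+ Downstream (0.12) were not called. E007 had a mean index of 1.57 Upstream and 0.93 Downstream. E030 had −1.56 and −0.56, E040 −0.68 and −0.59, E075 −0.79 and −0.57 and E081 −0.11 and −0.38. E040+ behind P022 measured 1.99, 1.96 and 2.18, below 2.70, 2.50 and 2.93 for the mean of the controls. E005 went opposite ways, with 0.41 Upstream and −0.34 Downstream.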

How the data were processed

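The authors deposited, for each construct and each of 3 biological replicates, an activity: the linear ratio of its cDNA barcodes over its pDNA barcodes. Per the labels, plasmid barcodes (2 technical pDNA replicates per mix) served as the input. Bowtie2 and mm10 are named in the submitters' processing notes; barcode filters, averaging and scaling are not given in the sources used here. Barcode numbers per construct were not analysed here, so the depth behind a value is unknown and no counting interval is given. Of the value columns, 8 hold means or derived values, belong to no sample and were not used. The deposited Upstream boost indices were not used.

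The log2 activity of a construct was compared with that of its baseline, 3 values against 3, by limma 3.58.1 in R 4.3.3 with moderated variances, two-sided, and Benjamini-Hochberg adjustment over all Klf2 rows of the same kind at 0.05. A construct at 0 in any replicate was dropped; none of these held P022. Replicates share a plasmid pool, so p-values measure the spread between transfections. Construct and baseline are values of the same transfected sample, so replicates pair by design; the correlation of their deviations was 0.02, 0.59 and 0.79 for replicates 1, 2 and 3 Upstream and 0.91, 0.84 and 0.85 Downstream. The planned comparison had no block, and a block was an alternative. SDs are over replicates. Python 3.11.15, pandas 2.3.3 and numpy 2.4.6 were used.

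On simulated data with known changes, the cCRE comparison Upstream recovered 48.5%, 63.6% and 74.2% of changes of 1, 2 and 4 log2 units over 3685 pairs, and the Downstream one 91.2%, 100% and 100% over 1364. A promoter before a cCRE recovered 0%, 0% and 39.4% over 3930, and a promoter before a promoter 38.2%, 63.6% and 92.4% over 1317. The position comparison recovered 25%, 43.9% and 72.7% over 2575, with 11.3% of its calls false. The orientation comparison behind a cCRE recovered 45.6%, 57.6% and 80.3% over 1546 (6.87% false), with the promoter first 27.9%, 47% and 80.3% over 1531 (4.63% false), and for fragments alone 12.5%, 62.5% and 87.5% over 99. The boost index comparison had 6.7% false calls Upstream and 2.91% Downstream, and the cCRE comparison Downstream 5.37%. At most 68 rows were changed at each size, and construct and baseline varied independently. In the data larger shares were called in several comparisons, such as 28% for a promoter before a cCRE and 49.8% for position. The simulated rates therefore do not carry over to the calls in the data.

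The fragments named are, by rule, all promoters of the locus where promoters are compared, the 5 highest and 5 lowest pairs in each comparison, the 5 cCREs nearest to P022 among those measured with it (the nearer E084 was not), the 3 promoters with the most alike boost index over at least 20 shared cCREs, and cCREs called alike in both assays. P022, the lists and the tests were chosen with earlier results of these data known. The shuffled E27 control, E005 in the last comparison, the per-replicate values of E087+ and P023, and the count of pairs above both promoters were picked after their values were seen. So were the other promoters whose counts of calls stand beside those of P022, and the order of promoters by Spearman's rho.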

Additional observations from a re-analysis of the deposited data

How the results depend on the processing

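Alternatives were a replicate block, each replicate left out, quantile-normalised replicates, a pseudocount of 0.01, constructs under a mean log2 of −4 left out, other baselines and, chosen after the data had been seen, a variance trend and the median of the controls. With the replicate block, which follows the pairing of construct and baseline within a transfection, 93 in place of 57 pairs of a cCRE before P022 were called, 109 in place of 70 Downstream constructs and 47 in place of 22 Downstream orientation comparisons; no other count moved by over 1.5 times, and the difference between the orientations of P022 alone stayed 2.01 (limma adjusted p = 0.0012).

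Leaving out 1 replicate at a time leaves 2 values against 2. It gave 0 calls each time for a cCRE before P022, 0 to 22 for a promoter before it, 94 to 212 for P022 before a cCRE, 0 to 58 for P022 before a promoter, and 79 to 127 for position. With a cCRE before P022 the orientation counts were 43 to 65, and with P022 first 0 to 96. Downstream calls numbered 43 to 74. The orientation difference of P022 alone was 2.00 to 2.03. Single pairs that changed sign were not called: P022− before E030− (−0.39 to 0.10), before P018+ (−0.092 to 0.086) and before P003+ (−0.044 to 0.030).

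Quantile-normalised replicates gave 121 calls for a cCRE before P022, 44 for a promoter before it, 43 for the Upstream boost index against other promoters and 35 for Downstream orientation. The variance trend gave 102 for a cCRE before P022, and the pseudocount 4 for the Upstream boost index. The correlation between assays was 0.39 when matched by orientation, with P022+ only.

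With the median construct as the Upstream baseline 11 of 162 cCRE pairs were called, and the signs turned for E083+ (0.36) and E083− (0.31) before P022+, for E085+ before P022+ (0.18), and for E085− (0.25), E081− (0.16) and E083− (0.12) before P022−. They also turned for P022− before P017+ (0.22), P003+ (0.21) and P021+ (0.20). Against the P022 vector alone Downstream, E085+ (−0.17), E083+ (−0.33), E085− (−0.39), E082− (−0.47), E081+ (−0.50), E082+ (−0.51) and E087+ (−0.55) turned. Against the median construct so did E082− (−0.034), E081+ (−0.060), E082+ (−0.071) and E087+ (−0.11). The causes were not tested. Depth is unknown, so what it limits could not be given.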
